A study of Homo sapiens with 4 samples.

Results

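Mitotic-high CHP134 cells are the 270 cells, of 1082 kept and 1287 in the count table, with the highest mitotic score in a single-cell RNA sequencing study of 2 drugs. CHP134 is an established human neuroblastoma line with amplified MYCN. The score of a cell is the mean log2(CPM + 1) of TOP2A, CCNB1, CDC20, PLK1, CENPF, AURKA, HMMR and UBE2C, where CPM is a gene's count scaled to a fixed total, every cell was first thinned at random to 34000 counts, and 1 count in such a cell makes 29.4 CPM. A cell was kept if its counts reached 34000, its detected genes 500, and its mitochondrial share no more than 25%, and the top 25% of all kept cells together were taken. The groups were CHP134 cells given 5 µM 13-cis retinoic acid (13cRA, a vitamin A derivative that drives neuroblastoma cells to differentiate) for 24 h, 10 µM doxazosin (a blocker of alpha-1 adrenergic receptors) for 24 h, both drugs at these doses for 24 h (the combination), or 0.04% of the vehicle DMSO for 24 h. Whether the drug-treated cells also carried DMSO is not given in the labels. The mitotic-high cells numbered 43 of 249 kept cells with 13cRA, 69 of 235 with doxazosin, 63 of 270 with the combination and 95 of 328 with DMSO. Each treatment is 1 sample of 1 cell line, and all 4 were handled on 1 nanowell chip, so no difference between treatments has a replicate error or a test, and treatment and sample cannot be told apart.

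At the entry into mitosis, cyclin B bound to the kinase CDK1 starts chromosome condensation and spindle assembly, helped by the polo kinase PLK1 and the aurora kinases. The spindle assembly checkpoint holds back the anaphase-promoting complex until every kinetochore is attached, and CDC20 then lets that complex mark cyclin B and securin for destruction. Many genes of these steps are transcribed late in the cell cycle, in G2 phase and mitosis, under the B-MYB, FOXM1 and DREAM complexes. Their promoters often hold elements called the cell cycle genes homology region (CHR) and the CCAAT box. RNA levels of such genes therefore mark cells in G2 phase and mitosis together, and DNA content was not measured here.

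The promoters below are printed to show where motifs of these elements stand, and where none was found, in genes that define the mitotic-high cells. Of the 8 score genes, 6 had an entry in the RefSeq promoter table for GRCh38.p14, and the 250 bases before the transcription start were searched on both strands for TTTGAA (reverse complement TTCAAA), the CHR motif, and for CCAAT (reverse complement ATTGG). Capitals mark these motifs, and each sequence runs 5′ to 3′ on the gene's own strand. TOP2A lies at chr17:40417897-40418146 on the minus strand, CDC20 at chr1:43358731-43358980, PLK1 at chr16:23678639-23678888, HMMR at chr5:163460382-163460631, CCNB1 at chr5:69166900-69167149 and CCNB2, another B-type cyclin and no score gene, at chr15:59104896-59105145, the last 5 on the plus strand.
TOP2A: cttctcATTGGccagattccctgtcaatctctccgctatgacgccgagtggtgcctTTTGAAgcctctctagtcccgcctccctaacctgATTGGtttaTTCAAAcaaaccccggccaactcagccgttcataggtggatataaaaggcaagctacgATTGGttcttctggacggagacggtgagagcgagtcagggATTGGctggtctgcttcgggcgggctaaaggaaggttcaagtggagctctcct
CDC20: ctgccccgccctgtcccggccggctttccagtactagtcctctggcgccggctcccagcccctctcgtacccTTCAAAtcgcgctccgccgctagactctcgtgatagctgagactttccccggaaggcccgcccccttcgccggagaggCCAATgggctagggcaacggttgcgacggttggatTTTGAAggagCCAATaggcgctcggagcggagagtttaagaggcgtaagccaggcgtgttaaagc
PLK1: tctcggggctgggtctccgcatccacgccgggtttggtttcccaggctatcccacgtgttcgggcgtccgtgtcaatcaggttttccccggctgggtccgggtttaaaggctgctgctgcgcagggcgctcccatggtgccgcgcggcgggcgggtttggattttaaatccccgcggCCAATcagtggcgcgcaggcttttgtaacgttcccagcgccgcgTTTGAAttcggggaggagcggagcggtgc
HMMR: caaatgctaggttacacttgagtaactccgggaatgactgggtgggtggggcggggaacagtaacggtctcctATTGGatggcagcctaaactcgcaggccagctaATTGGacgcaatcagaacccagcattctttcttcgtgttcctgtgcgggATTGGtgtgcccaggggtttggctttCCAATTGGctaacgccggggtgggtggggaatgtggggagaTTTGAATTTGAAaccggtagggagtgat
CCNB1: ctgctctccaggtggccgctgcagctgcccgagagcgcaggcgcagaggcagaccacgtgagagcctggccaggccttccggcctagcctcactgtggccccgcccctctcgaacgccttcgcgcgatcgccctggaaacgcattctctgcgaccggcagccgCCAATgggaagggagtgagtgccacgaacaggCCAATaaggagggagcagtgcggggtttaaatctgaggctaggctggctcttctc
CCNB2: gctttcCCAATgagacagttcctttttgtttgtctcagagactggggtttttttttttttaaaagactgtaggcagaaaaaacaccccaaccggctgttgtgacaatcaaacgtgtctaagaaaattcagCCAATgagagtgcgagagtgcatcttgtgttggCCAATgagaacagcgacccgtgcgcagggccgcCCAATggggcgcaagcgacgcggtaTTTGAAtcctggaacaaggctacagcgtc
TOP2A held 2 CHR and 4 CCAAT motifs, CDC20 2 and 2, PLK1 1 and 1, HMMR 2 and 5, CCNB2 1 and 4, and CCNB1 0 and 2. In HMMR, CCAAT on 1 strand and its reverse complement on the other overlap at CCAATTGG. The CHR motif was present in 4 of the 6 score gene promoters and the CCAAT motif in all 6, and the 2 without a CHR motif were CCNB1 and CENPF. Of all 27305 genes with a promoter in the table, 16.1% held the CHR motif, 37.0% the CCAAT motif and 5.79% both. A gene with several promoter windows was counted if any of them held the motif, or held both. A match says only that these letters stand in the window. Only TTTGAA was searched as the CHR motif, so an element with other letters or outside the window would be missed.

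The libraries differed in depth, and the 13cRA library stood apart. Over the whole table the libraries held from 26714459 to 79844022 counts. Cells that were kept in all numbered 249 of 355 with 13cRA, 235 of 252 with doxazosin, 270 of 307 with the combination and 328 of 373 with DMSO, and 145 cells fell under the count minimum, 83 of them in the 13cRA library. The median total count of a mitotic-high cell was 60881 with 13cRA, 155628 with doxazosin, 209882 with the combination and 126688 with DMSO. At an equal 34000 counts, mitotic-high 13cRA cells showed a median of 4038 genes, against 4881 with doxazosin, 4866 with the combination and 4744 with DMSO. Of the genes of noradrenergic neuroblastoma identity, MYCN was at 706 to 825 CPM and GATA3 at 249 to 420 CPM in mitotic-high cells of the 4 libraries, while DBH and TH, enzymes of catecholamine synthesis, were at 0. No marker of Schwann, leukocyte or epithelial cells passed 5 CPM in mitotic-high cells of any library. Of the 7 endothelial markers, CLDN5 was at 6.16 CPM in mitotic-high and 20.7 CPM in other 13cRA cells, and their summed level was 3.84 to 10.3 CPM in mitotic-high cells and 6.02 to 25.4 CPM in the other cells, highest with 13cRA in both. The part of these in the 13cRA values was not tested, and the summed level of the 9 fibroblast markers was 53.4 to 86.5 CPM in mitotic-high cells and 71.1 to 82.4 CPM in the other cells.

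The share of mitotic-high cells was lowest with 13cRA and close to that of DMSO with doxazosin. It was 17.3% with 13cRA (exact Clopper-Pearson 95% interval 12.8 to 22.5%), 29.4% with doxazosin (23.6 to 35.6%), 23.3% with the combination (18.4 to 28.8%) and 29.0% with DMSO (24.1 to 34.2%). The 13cRA interval lies below those of doxazosin and DMSO without overlap, and that of the combination overlaps all the others. Over 20 alternative choices of score, set size, thinning or cells, the 13cRA share was below those of doxazosin and DMSO in all 20, but its interval overlapped that of doxazosin in 14 and that of DMSO in 9. These intervals cover the sampling of cells and not the spread between cultures. The shares were also read in a window of detected genes and in a window of counts. The 13cRA share lay above its interval of 12.8 to 22.5% in the first and within it in the second. Among cells with 4000 to 5000 genes after thinning, the shares were 25.3% with 13cRA, 28.6% with doxazosin, 21.3% with the combination and 29.2% with DMSO. Among cells with 34000 to 120000 counts they were 20.2% with 13cRA, 41.4% of only 58 cells with doxazosin, 28.9% of only 38 cells with the combination and 31.2% with DMSO. In the first of these windows the 13cRA value lay above the combination value, and the part of detected genes in the 13cRA share was not tested beyond this.

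The lower end of the score showed the other side of the 13cRA library. The median score over all kept cells was 5.10 with 13cRA, 6.39 with doxazosin, 6.11 with the combination and 6.49 with DMSO. Cells with a count for at most 2 of the 8 score genes made up 10.8% of 13cRA cells (7.27 to 15.4%), 0.851% of doxazosin cells (0.103 to 3.04%), 3.70% of combination cells (1.79 to 6.71%) and 1.52% of DMSO cells (0.497 to 3.52%). Within the mitotic-high cells, which passed 1 common cutoff, median scores were 8.88 for 13cRA, 8.66 for doxazosin, 8.91 for the combination and 8.97 for DMSO. The cutoff ran through a continuous range of scores, and not through a gap. The lowest scores inside were 7.614 and 7.623, the highest outside 7.612 and 7.611, and 26 cells lay within 0.25 of the cutoff inside it and 39 outside it.

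**Figure D1:**
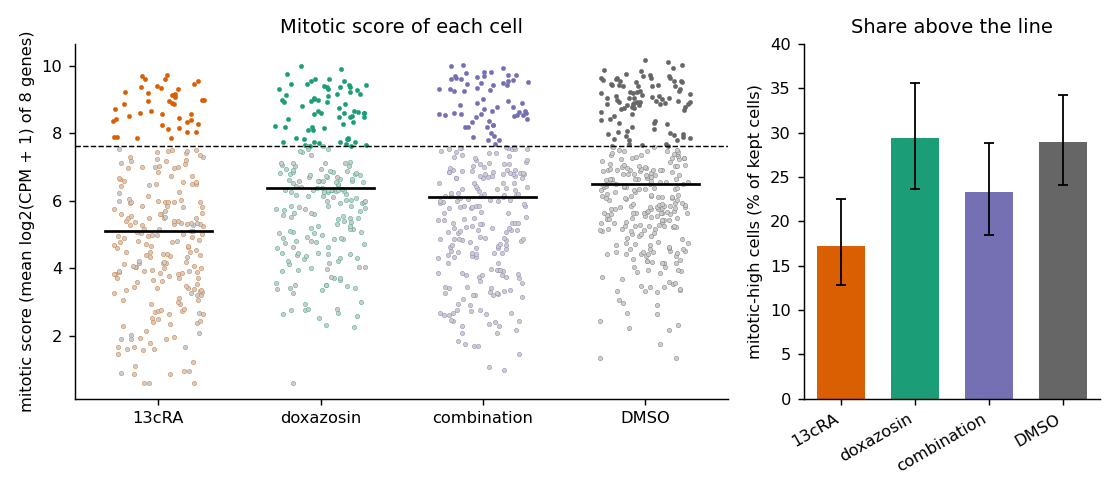
Left, the mitotic score of each kept cell (mean log2(CPM + 1) of 8 genes) by treatment, with filled points for mitotic-high cells, a dashed line at the cutoff and a bar at the median of all kept cells. Right, the percent of kept cells above the line with exact 95% intervals; the shares are 17.3% for 13cRA, 29.4% for doxazosin, 23.3% for the combination and 29.0% for DMSO.

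The cells were chosen by the levels of the 8 score genes, so these levels are a description. Levels are CPM of the thinned counts summed over the cells of a group, with exact Poisson intervals for counting error only, because amplified reads without molecular identifiers are not independent molecules. PLK1, the polo kinase, was at 321 CPM in mitotic-high and 44.8 CPM in other 13cRA cells, at 286 and 51.4 CPM with doxazosin, at 380 and 49.0 CPM with the combination, and at 422 and 58.3 CPM with DMSO. AURKA, the aurora kinase of spindle poles, was at 401 and 49.0 CPM with 13cRA, 377 and 57.2 CPM with doxazosin, 404 and 57.1 CPM with the combination, and 438 and 63.8 CPM with DMSO, mitotic-high cells first each time. By the median over the 4 libraries these 2 genes stood farthest apart between the groups of cells, with log2 differences of 2.45 to 2.93 for PLK1 and 2.698 to 3.01 for AURKA.

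Cyclin B1 and CDC20 lay in between. CCNB1, the activating partner of CDK1, was at 596 CPM in mitotic-high against 113.5 CPM in other cells with 13cRA, 627 against 147 CPM with doxazosin, 738 against 128 CPM with the combination and 669 against 123 CPM with DMSO. CDC20, the activator of the anaphase-promoting complex, was at 327 against 77.8 CPM with 13cRA, 405 against 76.5 CPM with doxazosin, 433 against 79.3 CPM with the combination and 411 against 103.6 CPM with DMSO. HMMR, a spindle-binding protein, was at 198 against 27.0 CPM with 13cRA, 164 against 26.8 CPM with doxazosin, 203.5 against 39.8 CPM with the combination and 158 against 23.6 CPM with DMSO. For each of these 3 genes, all 4 levels in mitotic-high cells lay above all 4 in the other cells.

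TOP2A, CENPF and UBE2C were widely detected outside the mitotic-high cells too. TOP2A, the topoisomerase that untangles sister chromatids, was at 1865 against 720 CPM with 13cRA, 1629 against 757 CPM with doxazosin, 1841 against 630 CPM with the combination and 1800.0 against 796 CPM with DMSO. Cell by cell the ranges overlapped. Single mitotic-high cells ran from 471 CPM over a median of 1676 to 4029 CPM with 13cRA and from 294 over 1647 to 5088 CPM with DMSO, while other cells ran from 0 over 529 to 7206 CPM with 13cRA and from 0 over 676 to 4324 CPM with DMSO. A TOP2A count was seen in every mitotic-high cell and in 93.7 to 97.9% of other cells by library, so that the gene separated cells by level and not by presence. CENPF, a kinetochore protein, was 1.15 to 1.33 higher and UBE2C, the ubiquitin-conjugating enzyme of the anaphase-promoting complex, 1.38 to 1.71 higher on the log2 scale. By contrast, PLK1 was seen in 97.1 to 100% of mitotic-high and in 29.6 to 54.1% of other cells. All 8 genes were seen together in 93.0% of mitotic-high and 1.46% of other 13cRA cells, 91.3 and 4.22% with doxazosin, 92.1 and 7.73% with the combination, and 92.6 and 9.01% with DMSO.

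**Figure D2:**
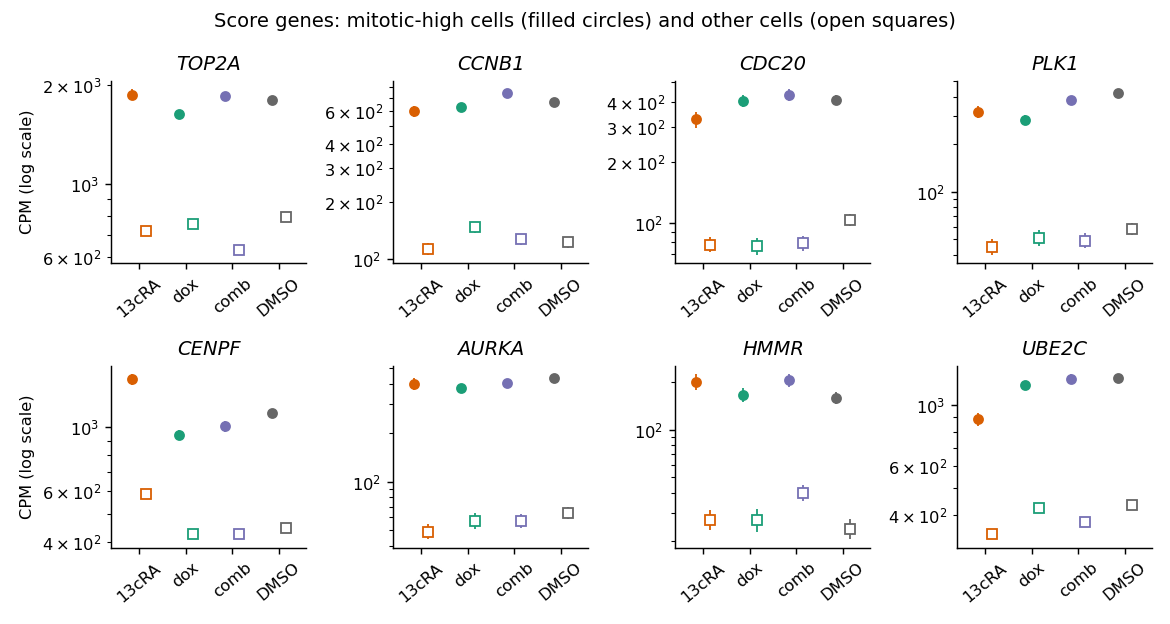
Level of each score gene (CPM of summed thinned counts, log scale, axes not starting at 0) in mitotic-high cells (filled circles) and other cells (open squares) of the 13cRA, doxazosin (dox), combination (comb) and DMSO libraries, with exact Poisson 95% intervals. For PLK1 the circles lie between 286 and 422 CPM and the squares between 44.8 and 58.3 CPM.

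Score genes were also compared pair by pair across cells. Over the 28 pairs of score genes, Pearson's r across the 270 cells ran from −0.05 to 0.53 with a median of 0.21, and across the 812 other cells up to 0.46 with a median of 0.18. The highest value was that of TOP2A and AURKA, at 0.53, and the lowest that of AURKA and HMMR, at −0.05. TOP2A and CDC20 had an r of −0.03. These are descriptions over cells that share libraries and a score, and the choice of cells by the summed score bears on them. Choosing the cells on 17000 counts of each cell gave 254 of the 270 cells, which had been chosen on counts that include these 17000. In the 17000 other counts the score genes were then 1.04 to 3.08 higher on the log2 scale in each library. Without molecular identifiers, copies of the same molecule can fall on both sides of this split, so its sides are not independent.

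All genes were compared between mitotic-high and other cells within each library, with a difference of log2((CPM + 1)/(CPM + 1)) and a gene called at 2-fold or more. The counts of higher genes include the 8 score genes, which chose the cells and were at least 2-fold higher in every library. Genes were measured if they had at least 20 CPM in either group of cells. In the 13cRA library 256 genes were at least 2-fold higher (3.95% of 6484 measured genes) and 298 lower (4.6%). The doxazosin library had 110 higher (1.76% of 6257) and 76 lower (1.21%), the combination library 135 higher (2.16% of 6257) and 74 lower (1.18%), and the DMSO library 96 higher (1.54% of 6251) and 48 lower (0.768%). The 13cRA sum rested on the fewest cells, and the median absolute difference of all measured genes there was 0.30, against 0.20 with doxazosin, 0.22 with the combination and 0.19 with DMSO. In all 4 libraries, 44 genes were at least 2-fold higher (0.797% of the 5521 measured in all 4), the 8 score genes among them, and 1 gene, CCNE1, was at least 2-fold lower (0.0181%). Without the 13cRA library 54 genes were higher in all 3, the 44 among them. Because the same cells were split by their own RNA, these are values and not tests.

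By list medians, cytokinesis proteins, the chromosomal passenger complex and spindle motors stood highest. Over all 5521 genes measured in every library, 886 were higher and 726 lower in all 4, and the counts of list members that follow can be read against these. Of the 25 mitotic kinesin and spindle genes measured in all 4 libraries, all 25 were higher and 10 were at least 2-fold higher in every library, with a median difference of 1.15 against 0.014 for all genes. KIF20A, a kinesin of the central spindle, was at 213 CPM (190 to 238) in mitotic-high against 31.6 CPM (27.5 to 36.0) in other cells with 13cRA, 277 against 47.5 CPM with doxazosin, 269 against 39.4 CPM with the combination and 279 against 47.3 CPM with DMSO. The KIF20A level was lowest with 13cRA in both groups of cells, and the difference was 2.52 to 2.74. DLGAP5, a spindle microtubule stabiliser, was 2.06 to 2.48 higher, KIF14, a cytokinesis kinesin, 1.84 to 2.40, TPX2, the activator of aurora A, 1.52 to 1.93, ASPM, a spindle pole protein, 1.40 to 2.04, and KIF2C, a microtubule depolymerase, 1.20 to 1.56.

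All 11 cytokinesis genes were higher in every library, 5 of them at least 2-fold, with a median of 1.27. ECT2, the exchange factor that activates RhoA at the cleavage furrow, was at 95.8 against 33.3 CPM with 13cRA, 147 against 53.2 CPM with doxazosin, 159 against 42.9 CPM with the combination and 149 against 42.4 CPM with DMSO. CEP55, a midbody protein of abscission, was 1.25 to 2.09 higher, RACGAP1, part of the centralspindlin complex, 1.10 to 1.42, and DEPDC1 1.63 to 2.38. In the chromosomal passenger complex, CDCA8 (borealin) was 1.13 to 1.77 higher, the kinase AURKB 0.95 to 1.35 and BIRC5 (survivin) 0.66 to 0.97.

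The kinases and cyclins of mitotic entry followed. Of 18 measured in all 4 libraries, 12 were higher in every library and 4 (BORA, CCNA2, CCNB2 and NEK2) at least 2-fold, with a median of 0.80. NEK2, a centrosome-splitting kinase, was at 134 against 24.7 CPM with 13cRA, 118 against 27.6 CPM with doxazosin, 182 against 39.2 CPM with the combination and 138 against 33.3 CPM with DMSO. CCNB2 was 1.31 to 2.19 higher and CCNA2, the cyclin of S and G2 phase, 1.29 to 1.80. CDK1 itself differed less, by 0.74 to 1.47, and CDC25A, a phosphatase of the G1 to S transition, was at 44.5 against 45.8 CPM with 13cRA and 19.2 against 37.5 CPM with DMSO. BORA, which helps aurora A activate PLK1, was 1.12 to 2.67 higher.

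At the kinetochore and in the checkpoint, 3 genes of each list stood out. Of the 12 checkpoint genes measured in all 4 libraries, BUB1, BUB1B and TTK, the checkpoint kinases, were at least 2-fold higher in every library, while the list's median was 0.36. BUB1 was at 122 against 31.1 CPM with 13cRA, 171 against 41.5 CPM with doxazosin, 173 against 40.8 CPM with the combination and 151 against 27.0 CPM with DMSO. MAD2L1, which inhibits CDC20 at unattached kinetochores, differed by 0.35 to 0.66, and BUB3 was lower with 13cRA, by −0.40, and 0.35 to 0.56 higher in the other 3 libraries. Of 29 kinetochore and centromere genes, 19 were higher in every library and 3 at least 2-fold. They were CENPA, the centromeric histone (2.00 to 2.35), SGO2, a protector of cohesion (1.94 to 2.25), and the kinesin CENPE (1.65 to 2.34). The constitutive centromere proteins CENPM and CENPK differed by −0.08 to 0.10 and by −0.19 to 0.59.

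Genes of the anaphase-promoting complex and its substrates differed in both directions. Of these genes 7 were higher and 1 lower in every library. The list's median was 0.12 over 14 genes measured in all 4 libraries, and 2 of them, ESPL1 (separase, which cuts cohesin) and CDCA3 (a trigger of WEE1 destruction), were at least 2-fold higher in each. PTTG1, or securin, was at 261 against 150 CPM with 13cRA, 341 against 158 CPM with doxazosin, 354 against 169 CPM with the combination and 324 against 141 CPM with DMSO, a difference of 0.80 to 1.20. The subunit CDC27 differed by 0.68 to 0.89, CDC23 by 0.16 to 0.45 and CDC16 by −0.56 to −0.12. GMNN (geminin), an inhibitor of replication licensing that the complex destroys, differed by −0.07 to 0.12.

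Condensin, chromatin and centrosome genes showed smaller differences, with medians of 0.42 over 14 genes and 0.23 over 16 genes and none at least 2-fold higher in every library. HMGB2, a chromatin protein, was 0.89 to 1.03 higher, MKI67, which coats mitotic chromosomes, 0.80 to 1.04, and the condensin subunit NCAPG 0.83 to 1.26. Among the regulators of late cell cycle transcription, FOXM1 was 0.31 to 0.59 higher and MYBL2 (B-MYB) differed by −0.44 to 0.16. E2F1, the activator of G1 to S genes, was lower in every library, by −0.65 to −0.36, and E2F2 by −2.02 to −0.17.

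Of the 44 genes, 37 were in a list and 7 in none. Of these 7, all but PSRC1 and PRR11 are named here after their values were seen. They were PSRC1 (1.79 to 2.72), a spindle protein, CDCA2 (1.17 to 1.97), which brings a phosphatase to anaphase chromatin, PRR11 (1.34 to 1.64), KPNA2 (1.19 to 1.69), an importin, GPSM2 (1.01 to 1.60), which positions the spindle, ARL6IP1 (1.13 to 1.44) and ENSG00000280206 (1.06 to 1.53). RefSeq promoters were found for 36 of the 44 genes. Of these, 20 (55.6%) held the CHR motif, 30 (83.3%) the CCAAT motif and 19 (52.8%) both. The shares of all genes with a promoter, given above, were 16.1, 37.0 and 5.79%. The 36 include the 6 score genes with a promoter, which chose the cells. Of these 6, 4 held the CHR motif, 6 the CCAAT motif and 4 both. Of the 39 S phase genes with an entry, 4 (10.3%) held the CHR motif, 28 (71.8%) CCAAT and 3 (7.69%) both. These shares describe the letters upstream and were not tested.

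**Figure D3:**
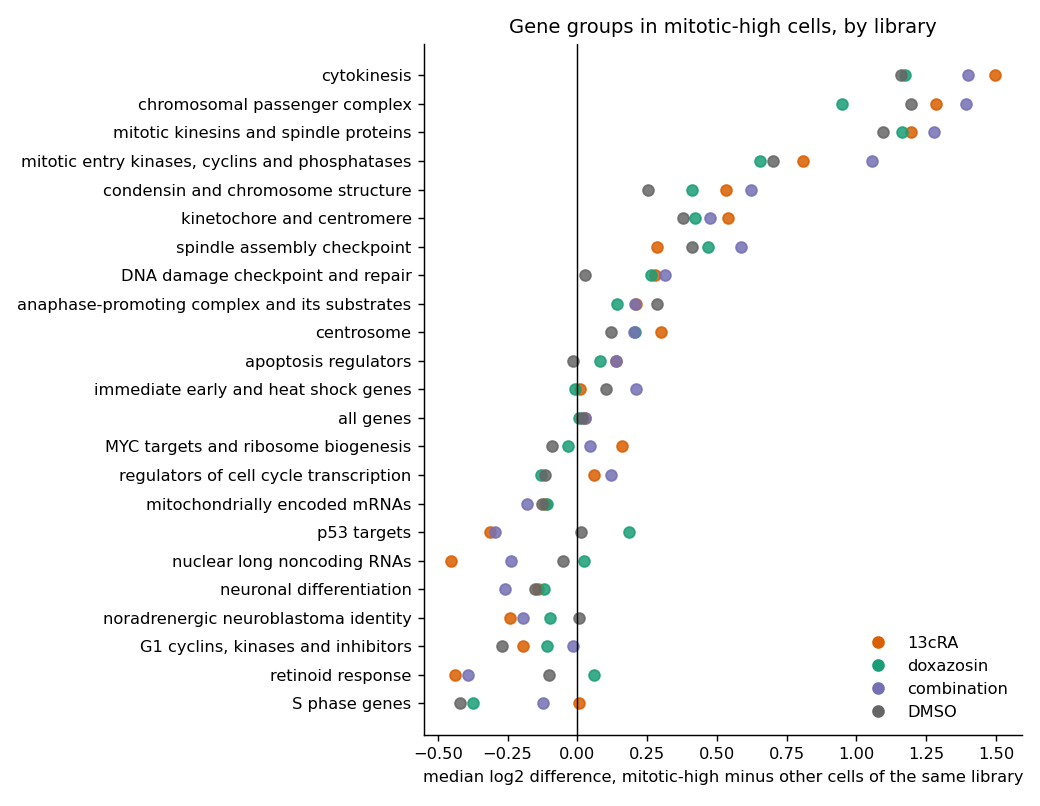
Median log2 difference between mitotic-high and other cells of the same library (x axis) for each gene list (y axis) and for all genes, with 1 point for each library. The 5 uppermost lists are those of cytokinesis, the chromosomal passenger complex, kinesins and spindle, mitotic entry and condensin, and the S phase points run from −0.42 for DMSO to 0.01 for 13cRA.

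S phase genes were lower in mitotic-high cells of 3 libraries and level in that of 13cRA. Their median difference was 0.01 with 13cRA (22 of 47 measured genes lower), −0.38 with doxazosin (41 of 50), −0.12 with the combination (32 of 49) and −0.42 with DMSO (46 of 50). Over the genes measured in all 4 libraries, 16 of 47 were lower in every library. CCNE1, the cyclin that drives entry into S phase, was at 21.9 CPM (14.97 to 30.9) in mitotic-high against 54.7 CPM (49.3 to 60.4) in other cells with 13cRA, 10.2 against 24.5 CPM with doxazosin, 9.34 against 28.7 CPM with the combination and 16.7 against 39.5 CPM with DMSO. CCNE2, its paralog, was at 2.74 against 16.1 CPM, 6.82 against 31.01 CPM, 5.14 against 18.6 CPM and 10.2 against 28.9 CPM in the same order of libraries. With 13cRA and the combination CCNE2 stayed under 20 CPM in both groups of cells, so it was not measured there. The replication clamp PCNA differed by −0.54 to −0.21, the licensing factor CDT1 by −0.74 to −0.46, and the helicase subunit MCM5 by −1.08 to −0.34. RRM2, a subunit of ribonucleotide reductase, was nearly level, at −0.23 to 0.07.

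Cell by cell, high scores for the 2 phases seldom met. An S phase score was taken as the mean log2(CPM + 1) of 51 S phase genes, and its top 25% of cells also numbered 270. The 2 sets shared 17 cells, 6.30% of each. Of mitotic-high cells, 0 of 43 were in the top set with 13cRA (an exact upper bound of 8.22%), 13.0% with doxazosin, 3.17% with the combination and 6.32% with DMSO, against 6.31, 44.0, 29.0 and 45.9% of the other cells in the same order. The other cells of the 13cRA library thus held few such cells too. Among mitotic-high cells the S phase score ran against the mitotic score, with Pearson's r of −0.26 over 270 cells, −0.15 with 13cRA, −0.37 with doxazosin, −0.15 with the combination and −0.38 with DMSO. Over all kept cells of a library, Pearson's r was 0.43 with 13cRA, 0.20 with doxazosin, 0.48 with the combination and 0.13 with DMSO, and Spearman's rho was 0.34, −0.02, 0.36 and −0.13 in the same order.

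**Figure D4:**
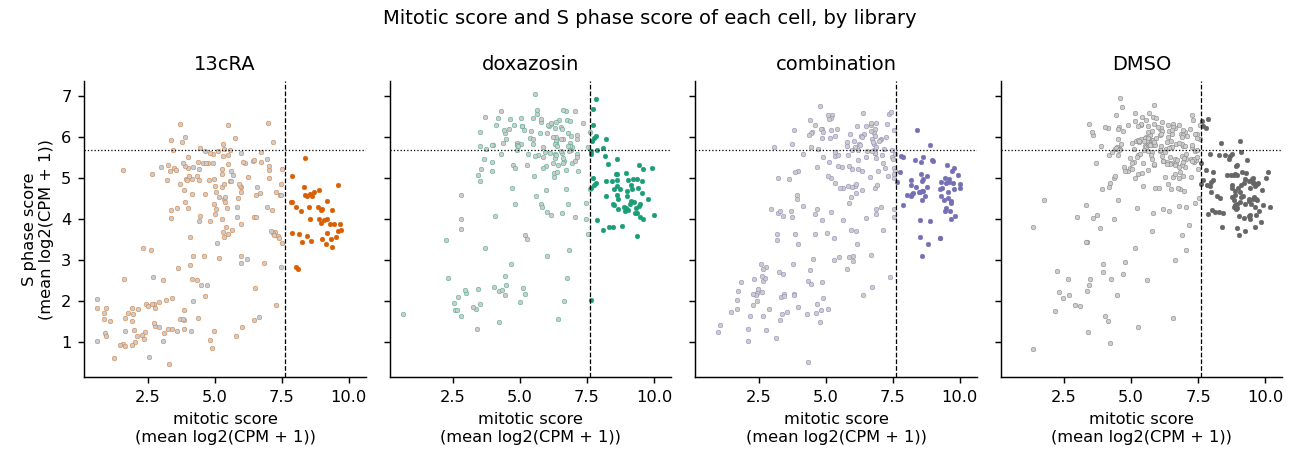
Mitotic score (x axis) and S phase score (y axis), both as mean log2(CPM + 1), of each kept cell in the 13cRA, doxazosin, combination and DMSO libraries; filled points are mitotic-high cells, and the dashed and dotted lines mark the 2 cutoffs. Most filled points lie under the dotted line, and 17 cells lie beyond both lines.

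Outside the cell cycle lists, mitochondrial mRNAs were lower in mitotic-high cells. All 13 mitochondrially encoded mRNAs were lower in mitotic-high cells of every library, with a median of −0.12. The median share of mitochondrial counts was 12.6% in mitotic-high against 13.7% in other 13cRA cells, 9.95 against 10.9% with doxazosin, 8.998 against 10.4% with the combination and 10.1 against 10.8% with DMSO. Mitotic-high cells also showed more genes at equal counts, with medians of 4038 against 3844.5 for 13cRA, 4881 against 4752 for doxazosin, 4866 against 4653 for the combination and 4744 against 4650 for DMSO. Of 23 neuronal differentiation genes measured in every library, 5 were lower and 1 higher in all 4, none at least 2-fold, with a median of −0.16, against 726 lower and 886 higher of all 5521 genes. Of the genes picked for their size, STMN2, a neuronal microtubule regulator, was at 54.7 against 142 CPM with 13cRA, 171 against 296 CPM with doxazosin, 65.8 against 155 CPM with the combination and 140 against 209 CPM with DMSO. NSG1, an endosomal protein of neurons, differed by −1.33 to −0.67. The linker histone H1-4 was at 51.3 against 98.1 CPM with 13cRA, 41.3 against 87.3 CPM with doxazosin, 46.7 against 78.01 CPM with the combination and 66.6 against 119 CPM with DMSO. Of the 9 noradrenergic identity genes measured in all 4 libraries, 3 were lower in every library and 0 higher, with a median of −0.12, beside the 726 lower of all 5521 genes.

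CDKN1A, the p21 inhibitor of cyclin-dependent kinases, was at 32.1 against 54.1 CPM with 13cRA, 66.1 against 71.4 CPM with doxazosin, 35.9 against 71.0 CPM with the combination and 29.4 against 91.8 CPM with DMSO. The gap was widest with DMSO and smallest with doxazosin in this choice of cells. Between the mitotic-high cells of these groups, the direction of CDKN1A turned with the choice of cells, as given below. CDKN1B (p27) was instead higher in mitotic-high cells, with 84.1 against 55.3 CPM with 13cRA, 66.9 against 45.4 CPM with doxazosin, 88.7 against 73.9 CPM with the combination and 68.1 against 52.6 CPM with DMSO. CDKN3, a phosphatase of CDK1 and CDK2, was 1.25 to 1.84 higher and was the only member of the G1 list at least 2-fold higher in every library.

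The next question was how mitotic-high cells differed between treatments. The 3 comparisons with DMSO share the 95 DMSO cells. Against DMSO, 13cRA had 378 genes at least 2-fold higher (5.81% of 6502 measured genes) and 413 lower (6.35%), doxazosin 48 higher (0.767% of 6258) and 48 lower (0.767%), and the combination 130 higher (2.06% of 6307) and 111 lower (1.76%). The 43 cells of the 13cRA group gave the smallest sum, 1462000 counts, against 3230000 for DMSO, and the median absolute difference of all genes was 0.39 with 13cRA, 0.21 with doxazosin and 0.23 with the combination. The part of the small sum in the 13cRA counts was not tested. The counting intervals leave out the variation from cell to cell.

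ENPP2 stood highest against DMSO in both groups given 13cRA. ENPP2, which encodes autotaxin, was at 324 CPM (295 to 354) in mitotic-high 13cRA cells, 234 CPM (214 to 256) with the combination, 2.13 CPM with doxazosin and 1.55 CPM (0.503 to 3.61) with DMSO, and a count was seen in 53.5, 71.4, 4.35 and 3.16% of these cells. SLIT2, an axon guidance ligand, was at 129 CPM with 13cRA, 69.6 CPM with the combination, 8.53 CPM with doxazosin and 9.60 CPM with DMSO. SCG2, a granin of secretory granules, was at 130 CPM with 13cRA, 125 CPM with the combination, 45.6 CPM with doxazosin and 20.1 CPM with DMSO. In each case both retinoid-treated levels lay above both others. Also among the highest genes against DMSO were AP2A2, POU3F1, SPSB4 and COTL1 with 13cRA, and MYO10, COTL1, AP2A2 and USP2 with the combination.

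The retinoid response list was built with genes named in an earlier account of these samples, so its direction is not independent evidence. Members under 20 CPM with DMSO, such as ENPP2 and SLIT2, were measured only through their level with 13cRA or the combination. This filter favours the higher direction. In mitotic-high cells 10 of its 11 measured genes were higher with 13cRA than with DMSO and 8 were at least 2-fold higher, with a median of 1.47 against −0.03 for all genes. With the combination 9 of 10 were higher, 5 of them at least 2-fold, with a median of 1.19. The retinoic acid-binding protein CRABP2 was at 43.8 CPM with 13cRA, 27.5 CPM with the combination and 19.2 CPM with DMSO, and NAV2, a neuron navigator, at 109 CPM, 105 CPM and 38.7 CPM. The receptor gene RARB stayed under 20 CPM in mitotic-high cells, at 19.8 CPM with 13cRA, 12.1 CPM with the combination and 0.929 CPM with DMSO. In the 13cRA and combination libraries, mitotic-high cells lay below the other cells on this list, with a median of −0.44 with 13cRA (13 of 15 measured genes lower) and −0.39 with the combination (10 of 13). With doxazosin 2 of 5 measured genes were lower and the median was 0.06, and with DMSO 4 of 5 were lower and it was −0.10. The medians of all genes were 0.026 with 13cRA, 0.027 with the combination, 0.007 with doxazosin and 0.017 with DMSO. A member under 20 CPM in mitotic-high cells was measured only through the other cells, and the reverse. Only 4 members were measured in all 4 libraries, of which 1 was lower and 0 higher in every library. The mean log2(CPM + 1) of the list per cell had medians of 1.18 in mitotic-high and 1.52 in other 13cRA cells, 0.873 and 0.832 with doxazosin, 1.52 and 1.73 with the combination, and 0.870 and 0.785 with DMSO. RGS16, a regulator of G protein signalling, was at 30.1 CPM (21.9 to 40.4) in mitotic-high against 136 CPM (127 to 145) in other 13cRA cells, and at 42.5 against 62.9 CPM with the combination.

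Lower in mitotic-high 13cRA cells than in those given DMSO were ISL1, a homeobox factor of sympathetic neurons, STC1, a secreted glycoprotein, MFAP4, a matrix protein, and ADAMTS5, a matrix protease. ISL1 was at 8.89 CPM with 13cRA, 19.6 CPM with the combination, 48.2 CPM with doxazosin and 55.7 CPM with DMSO. STC1 was at 50.6, 74.2, 249 and 287 CPM in the same order, and MFAP4 at 185, 316, 885 and 910 CPM. The combination lay between 13cRA and the doxazosin and DMSO levels for these 3 genes. KANSL2, a chromatin complex subunit, was at 8.21 CPM (4.24 to 14.3) with 13cRA, against 66.8 CPM with the combination, 50.3 CPM with doxazosin and 51.7 CPM (44.2 to 60.2) with DMSO. In the other cells KANSL2 was at 35.0 CPM with 13cRA and 35.8 CPM with DMSO, a difference of −0.03. TXNDC9 and GGH showed a like contrast, with −2.14 in mitotic-high and −0.45 in other cells for TXNDC9 and −2.08 and −0.34 for GGH. KANSL2, TXNDC9 and GGH were picked for the size of their difference in mitotic-high cells. That choice favours a smaller difference in the other cells, and its part was not tested.

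With doxazosin, fewer genes passed 2-fold against DMSO than with 13cRA or the combination. Among the p53 targets, SESN1 (sestrin 1) was at 21.3 CPM (15.8 to 28.1) with doxazosin against 4.33 CPM (2.37 to 7.27) with DMSO, and XPC, a DNA damage sensor, at 21.7 against 8.36 CPM. With CDKN1A they were the 3 of 9 measured members at least 2-fold higher, against 0.767% of all measured genes. Over the 7 members measured in both groups of cells, the median was 0.33 in mitotic-high and −0.24 in other cells, with 3 and 5 lower. The noncoding RNA MEG3 was at 20.9 against 7.12 CPM. Of these 2 groups, SESN1, XPC and MEG3 reached the 20 CPM needed to be measured only with doxazosin, where they are high. They were seen in 17.4 to 27.5% of mitotic-high doxazosin cells. Of the genes that met the naming rule of at least 50 CPM and a count in at least 20% of cells, the highest was MRE11, a nuclease of DNA break repair, at 52.4 CPM (43.6 to 62.6) against 22.9 CPM (17.99 to 28.8) with DMSO; in the other cells it was at 32.2 against 33.6 CPM. CDKN1A was at 66.1 CPM with doxazosin against 29.4 CPM with DMSO, but was seen in 31.9 and 30.5% of the cells. This direction turned with the choice of cells, to −0.54 when the top 25% was taken within each library. Lower were DHX35, an RNA helicase, at 24.7 against 53.9 CPM, CDK5RAP2, a centrosome scaffold, at 29.0 against 59.4 CPM, and ID1, an inhibitor of differentiation factors, at 60.1 against 119 CPM. ID1 was also lower in the other cells, at 72.1 against 124 CPM, and was at 35.9 CPM in mitotic-high combination cells.

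Genes 2-fold from DMSO within the mitotic-high cells were most numerous with 13cRA, among mitotic genes and among all genes. Of all genes, 5.81% were higher and 6.35% lower with 13cRA, and the counts of list members below can be read against these shares. Levels of the score genes are not compared here, since all cells passed 1 cutoff on them. With 13cRA, 5 of 18 measured genes of the anaphase-promoting complex list were at least 2-fold lower than with DMSO and 0 higher, with a median of −0.31. FBXO5, an inhibitor of that complex, was at 6.84 CPM (3.28 to 12.6) with 13cRA, 22.4 CPM with the combination, 33.7 CPM with doxazosin and 27.2 CPM (21.9 to 33.6) with DMSO. Of 31 kinetochore and centromere genes 2 were lower (CENPI by −1.63 and CENPO by −1.44) and 1 higher, and of 19 mitotic entry genes 2 were lower (MELK by −1.25 and CDC25C by −1.12) and 1 higher (CDC25A by 1.17). Over the 7 lists of mitotic entry, checkpoint, anaphase-promoting complex, kinetochore, passenger complex, kinesins and cytokinesis, 1 gene was 2-fold from DMSO with doxazosin and 1 with the combination. Among 26 kinesin and spindle genes measured against DMSO, 0 were 2-fold higher or lower with 13cRA, doxazosin or the combination, and the medians were 0.04, −0.07 and 0.01. Checkpoint genes lay lower with 13cRA, with 9 of 12 below DMSO, 2 of them at least 2-fold, and a median of −0.59, while 10 of 12 lay above DMSO with doxazosin, with a median of 0.18, and 6 of 12 with the combination. Over all measured genes 3404 of 6502 lay below DMSO with 13cRA, and 3079 of 6258 lay above it with doxazosin and 3141 of 6307 with the combination. BUB3 was at 143 CPM with 13cRA against 290 CPM with DMSO, and MAD2L1 at 208 against 337 CPM. In the other 13cRA cells the checkpoint median was −0.45, so this list lay below DMSO in both groups of cells. All 13 mitochondrial mRNAs were higher with 13cRA than with DMSO in mitotic-high cells, with a median of 0.64, and in the other cells the median was 0.66.

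In the other cells, the genes at least 2-fold from DMSO numbered 290 higher (4.5% of 6440) and 175 lower (2.72%) with 13cRA, 26 higher (0.42% of 6197) and 12 lower (0.194%) with doxazosin, and 120 higher (1.91% of 6269) and 68 lower (1.08%) with the combination. These sums rested on more cells than those of the mitotic-high cells, and the part of this in the lower counts was not tested. S phase genes lay farther below DMSO in the other cells than in the mitotic-high cells. Over the 49 genes measured in both groups of cells, the median difference of 13cRA from DMSO was −0.15 in mitotic-high and −0.57 in other cells, with 28 and 43 genes lower. For doxazosin the medians were 0.03 and −0.10 over 47 genes, with 21 and 36 lower. For the combination they were −0.07 and −0.40 over 47 genes, with 33 and 44 lower. The value was the higher in mitotic-high cells for 42 of 49 genes with 13cRA, 33 of 47 with doxazosin and 39 of 47 with the combination, against 3122 of 6044, 2921 of 5889 and 3013 of 5949 over all genes. The share of cells high for the S phase score differed between the libraries too, as given above, and its part in these values was not tested. For the retinoid list the medians in mitotic-high and other cells were 1.47 and 1.38 for 13cRA over 11 genes and 1.19 and 1.46 for the combination over 10. Gene by gene, the value was the higher in mitotic-high cells for 4 of 11 and 3 of 10 genes, and the median gene was lower there, by −0.31 for both.

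**Figure D5:**
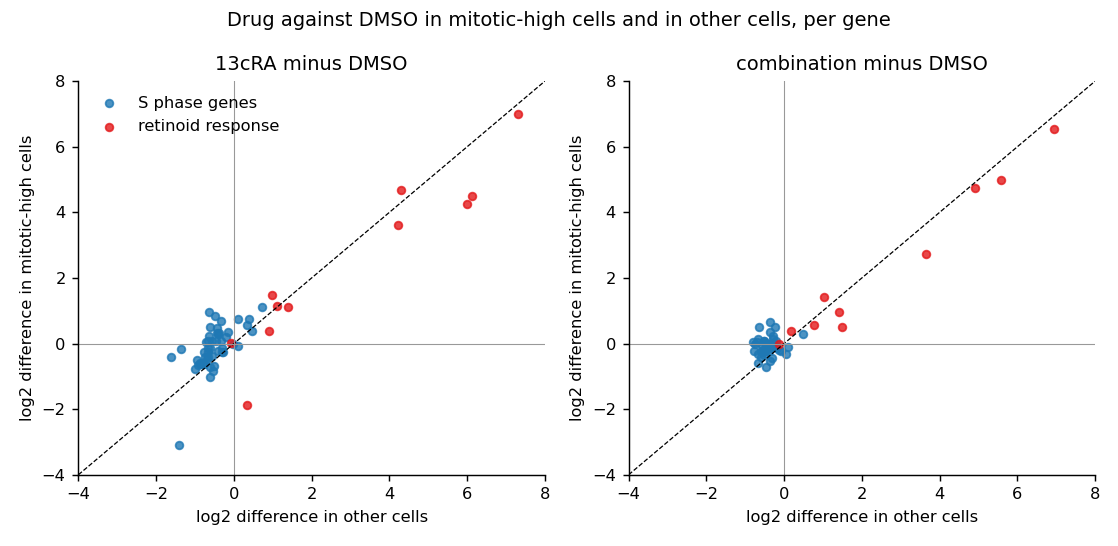
Log2 difference from DMSO of each S phase gene (blue) and retinoid response gene (red) in other cells (x axis) and in mitotic-high cells (y axis), for 13cRA and for the combination; the dashed line marks equal differences. Most S phase genes lie above the line, 42 of 49 for 13cRA and 39 of 47 for the combination.

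The combination was also set against each single drug. Against 13cRA, 407 genes were at least 2-fold higher (6.28% of 6483) and 382 lower (5.89%), and against doxazosin 118 were higher (1.88% of 6285) and 103 lower (1.64%). In the other cells the combination had 125 genes higher (1.96% of 6376) and 170 lower (2.67%) than 13cRA, and 118 higher (1.88% of 6260) and 68 lower (1.09%) than doxazosin. ENPP2 was at 234 CPM with the combination against 324 CPM with 13cRA, and SLIT2 at 69.6 against 129 CPM. Both summed levels were lower in the combination, by less than 2-fold. The share of cells with an ENPP2 count ran the other way and was larger with the combination, as given above. The highest against 13cRA were KANSL2, LINC00641, HIGD1A, a mitochondrial protein, and GGH, with differences of 2.88, 2.53, 2.53 and 2.43, and in the other cells −0.07, 0.09, 1.20 and 0.57. These genes too were picked by their values in mitotic-high cells. For KANSL2 and GGH the 13cRA level is the one already set against DMSO, so the comparisons are not independent. All 13 mitochondrial mRNAs were lower than with 13cRA, with a median of −0.78. SAPCD2, a regulator of spindle orientation, was at 16.8 CPM with the combination against 91.0 CPM with 13cRA, and CHAF1A, a histone chaperone, at 28.5 against 94.4 CPM. Against doxazosin ENPP2, SLIT2 and AP2A2 stood among the highest in the combination and ADAMTS5, STC1, CNTNAP2 and MFAP4 lowest.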

How the data were processed

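CHP134 cells were dispensed into nanowells with 1 library per cell and no molecular identifiers, per the labels' protocols. The submitters' processing notes name, with no order, STAR 2.7.8a, Seurat 4.3.0, featureCounts, bcl2fastq and fastp 0.23.3, and 2 builds with no role, GRCh38.p13 and GRCh37. The deposited table holds raw counts of 60651 gene IDs in 1287 cells, per the file headers and values, and for annotation and strand setting the sources used here name nothing, so overlapping and antisense genes cannot be told apart. Column names gave the treatment and a number but no barcode, so barcodes shared between libraries could not be counted, and no doublet caller was run because wells were imaged, per the labels' protocols.

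Kept cells (at least 34000 counts, at least 500 genes, at most 25% mitochondrial counts) were thinned without replacement to 34000 counts, where 1 count is 29.4 CPM. Kept cells had 34041 to 1436262 counts before thinning. Thinned counts were summed over cells, and genes with at least 20 CPM in either group were compared with a pseudocount of 1 CPM. With 1 sample per treatment no test was run. Intervals are exact at 95% and cover counting error only. The named genes were the 20 highest and 10 lowest within libraries, ranked by the smallest difference over the 4, then 8 per direction against DMSO and 4 per direction against a single drug, with at least 50 CPM and a count in at least 20% of cells in either of the 2 groups and a share of cells with a count that moved the same way, plus members of the gene lists; some genes that the rule names are not reported here. The members and the lists were chosen with earlier results of these data known. The comparison code was tested on simulated data. Python 3.11.15, numpy 2.4.6, scipy 1.17.1, pandas 2.3.3 and matplotlib 3.10.9 were used, and edgeR 4.0.16 and DESeq2 1.42.0 in R 4.3.3 only for scaling factors. Alternatives changed the score, the size of the top set, thinning, filters, the pseudocount and the scaling.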

Additional observations from a re-analysis of the deposited data

How the results depend on the processing

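No paired analysis was possible because each treatment is 1 sample with no replicate number. The shares of mitotic-high cells moved with the size of the set, to 21.7% with doxazosin and 23.2% with DMSO for the top 20%, and to 24.9% with 13cRA, 35.7% with doxazosin, 32.96% with the combination and 38.4% with DMSO for the top 33.3%, by construction. Taking cells with at least 2 counts for all 8 genes gave 11.2% with 13cRA, 20.9% with doxazosin and 20.1% with DMSO. Between 34000 and 120000 counts doxazosin had 41.4% and the combination 28.9%, and between 4000 and 5000 genes 13cRA had 25.3%, and the cause was not tested. The number of genes at least 2-fold higher in all 4 libraries was 38 to 52, and 38 to 44 were the same genes. The 1 gene lower in all 4 became 0 with a pseudocount of 5, without thinning, with the top 25% taken within each library and with levels read from the counts not used for the choice, and 15 without the filter.

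Counts between treatments in mitotic-high cells moved more, and the cause was not tested except that the unfiltered table tests more genes. With a pseudocount of 5, doxazosin had 21 genes higher and 17 lower than DMSO, the combination 79 and 61, and 56 were lower in the combination than with doxazosin. Without the filter 13cRA had 2912 higher and 2147 lower, doxazosin 1057 and 1178 and the combination 1190 and 1337 against DMSO, and the combination 2030 and 3182 against 13cRA and 1355 and 1425 against doxazosin. Without thinning doxazosin had 73 higher, and with the top 25% within each library 76 lower. Between 34000 and 120000 counts doxazosin had 209 higher and 352 lower and the combination 651 and 675 against DMSO, and the combination 780 and 706 against 13cRA and 830 and 675 against doxazosin, from 24 doxazosin and 11 combination cells. CDKN1A with doxazosin against DMSO reversed to −0.54 with the top 25% within each library and to −0.91 in that window of counts. Of the results that answer a comparison, 124 values held and 42 moved. Of those for single genes and lists, 1542 held, 133 moved and 2 reversed. A count of genes was taken to hold by its size alone, whichever genes it held. Without thinning, doxazosin had 41 genes lower than DMSO, which held by size, but only 14 were genes of the main setting. Of its 73 higher genes, 20 were. For 13cRA, the 377 higher and 398 lower genes without thinning shared 266 and 286 with the main setting. Genes under 20 CPM were not resolved at this depth.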
